A study of Mus musculus with 40 samples.

Results

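The comparison sets arrays labelled week 15 against arrays labelled week 6 within each of 5 diets, so that every diet gives 1 pair. Its 10 arrays were taken, by their labels alone, from the 40 arrays of a study of mouse subcutaneous fat. All mice were C57BL/6J, were put on their diet at weaning, and were killed at set weeks, which are stated to be counted from day 14. The RNA is labelled as coming from subcutaneous stromal vascular cells (SVC), the part of fat tissue that is left when adipocytes are taken out.

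LFC mice received a low-fat diet and carried no formulation. HFC mice received a high-fat, high-sucrose diet. HF5, HF20 and HF75 mice received that high-fat, high-sucrose diet with 5, 20 or 75 µg of Kal-1, a botanical preparation. There was 1 array per diet and week, how many mice gave each RNA is not known from the labels, and the 5 diets serve as the repeats of the time comparison. The comparison asks which genes differ between the later and the earlier week whatever the diet.

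Fat depots differ in the genes that mark their origin. Tbx15 and Shox2 are developmental regulators typical of subcutaneous fat, whereas Wt1 and Tcf21 are regulators typical of visceral fat, which is covered by mesothelium. In male mice the large visceral pad lies against the epididymis, a duct whose epithelium secretes proteins that coat maturing sperm. Levels below are log2 signals relative to the 75th percentile of the same array, so that a level of 0 is the 75th percentile, and a difference is week 15 minus week 6.

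The arrays labelled week 6 went against their tissue label. Each had higher mean levels of epididymal, mesothelial and visceral depot genes than every week 15 array. Most of the arrays labelled week 6 lacked Tbx15. For this reason they are called here the arrays labelled week 6, and the count of genes that differ is also given with other arrays in their place. The gene groups for this check were put together after their values were seen, so their counts and medians are descriptions.

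Crisp1, a sperm-coating protein of the epididymis, stood at 5.46 in LFC, 3.34 in HFC, 6.55 in HF5, 5.23 in HF20 and 2.14 in HF75 on the arrays labelled week 6. At week 15 it stood at -1.08 in LFC and -3.72 in HF5 and was not well above background in the other 3 diets. Every week 6 level of Crisp1 was above every week 15 level.

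Upk3b, a surface protein of mesothelium, stood at -1.32 in LFC, 1.02 in HFC, -0.72 in HF5, 0.20 in HF20 and -1.53 in HF75 on the arrays labelled week 6. At week 15 it was well above background in HFC, at -5.84, and in HF5, at -6.04, and in no other diet. The weeks did not overlap.

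Tcf21, a visceral depot regulator, had the largest fall of 6 visceral depot genes, whose median difference was -1.35. It stood between 0.73 in HF20 and 1.28 in HFC on the arrays labelled week 6. At week 15 its levels were -4.56 in LFC, -2.46 in HF5 and -6.20 in HF20, and it was not well above background in HFC and HF75. Tbx15 ran the other way: on the arrays labelled week 6 it was well above background in LFC, at -0.90, and in HF75, at -5.16, and in no other diet. At week 15 Tbx15 stood at -0.37 in LFC, -0.30 in HFC, -0.0010 in HF5, -0.030 in HF20 and 0.14 in HF75. So the LFC array labelled week 6 was the single array of that week with Tbx15 near its week 15 level.

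Of 28 genes of epididymal epithelium, 22 were well above background on the LFC array labelled week 6, 22 on HFC, 28 on HF5, 25 on HF20 and 18 on HF75. The numbers at week 15 were 11, 6, 20, 10 and 4 in the same order. The mean level of these genes was -0.12 in LFC, -2.41 in HFC, 3.34 in HF5, -0.32 in HF20 and -2.82 in HF75 on the arrays labelled week 6. At week 15 it was -6.48, -7.22, -4.23, -6.72 and -6.99 in that order, so HF5 kept the highest level of the later week. Of 12 mesothelial genes, 11 or 12 were well above background on each array labelled week 6, and 6 to 11 at week 15. Their mean level was 0.040 to 1.20 and -4.51 to -2.11 in the same order. Of 6 visceral depot genes the numbers were 5 or 6 and 4 to 6, with mean levels of -0.46 to 0.32 and -3.33 to -1.48.

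**Figure D1:**
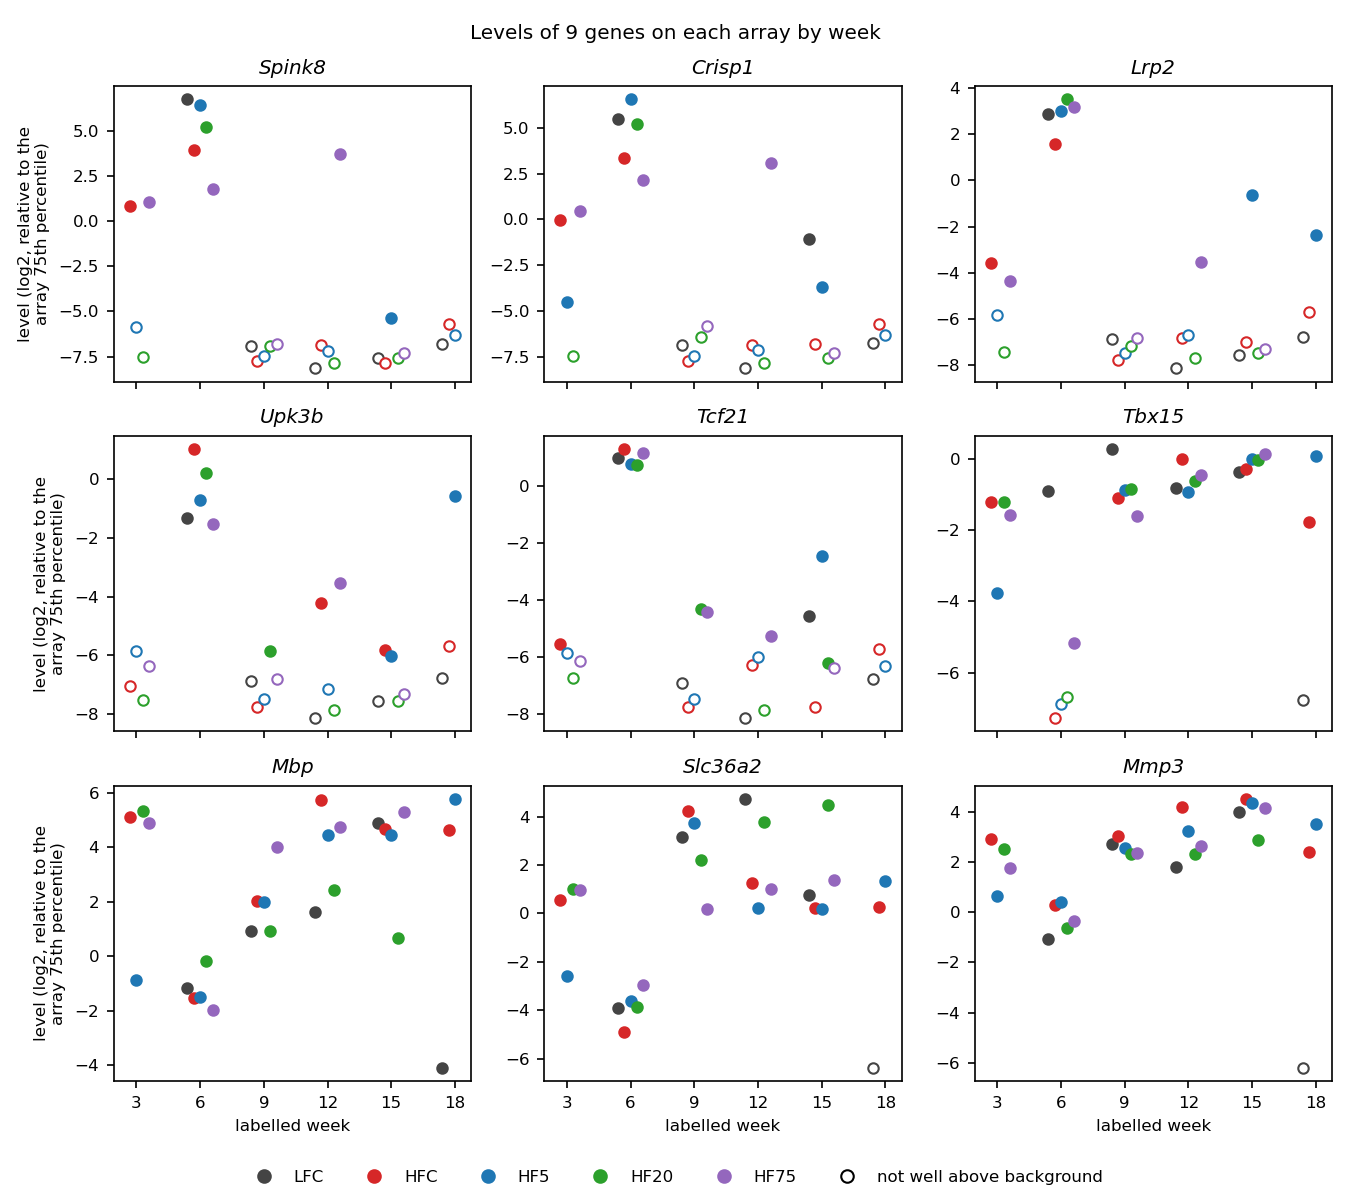
Levels of 9 genes (log2, relative to the array's 75th percentile) on each array against its labelled week, with 1 point per array, coloured by diet, and open where the gene was not well above background; the dim LFC week 3 array is left out. Spink8, Crisp1, Lrp2, Upk3b and Tcf21 were higher on all 5 arrays labelled week 6 than on all 5 week 15 arrays, while Mbp, Slc36a2 and Mmp3 were lower there.

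These signals were not confined to the arrays labelled week 6. Spink8, a protease inhibitor of the epididymis, was well above background on the week 3 arrays of HFC, at 0.82, and HF75, at 1.06, and on the HF75 array of week 12, at 3.69. It was not well above background on any array of week 9, but on the HF20 array of week 9, 21 of the 28 epididymal genes were. On that HF20 array 86.5% of all probes were well above background, and the mean level of the 28 genes was -5.30. The HF5 array of week 18 carried all 12 mesothelial genes, with a mean level of -0.044, and Upk3b there stood at -0.58. Upk3b was also well above background at week 12 in HFC, at -4.21, and in HF75, at -3.54. Upk3b was not well above background on the week 3 arrays of HFC, HF5, HF20 and HF75, and Tbx15 was well above background on those 4 arrays, at -1.21, -3.76, -1.21 and -1.57. Of the 28 epididymal genes, 15, 3, 3 and 14 were well above background there in the same order.

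Most measures of array quality overlapped between the weeks, but the lowest level well above background did not. That level, to which dim values below it are raised, was -7.27 to -6.47 on the arrays labelled week 6 and -7.83 to -7.32 at week 15, a mean difference of -0.76. The 75th percentile of the signal ranged from 585 to 1793 on the arrays labelled week 6 and from 733 to 1126 on the week 15 arrays. The share of probes well above background was 64.6% to 71.0% and 68.3% to 75.5%, and the median signal over background was 4.05 to 10.8 and 3.79 to 7.01, in the same order. No slide and no scan day held arrays of both weeks, so slide, scan day and week cannot be told apart.

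Many genes differed between the weeks. Of 21537 genes tested with limma, paired by diet, 3039 (14.1%) passed an adjusted p of 0.05, with 1173 (5.45%) higher and 1866 (8.66%) lower at week 15. The median difference over all genes tested was 0.07. The lower genes also moved farther: 402 fell by at least 16-fold, against 55 that rose that much. At week 15, 238 of the lower genes were well above background on no array, and 100 of the higher genes were well above background on no array labelled week 6. The filter asks for enough such arrays in either week. Of 753 genes that passed it through the arrays labelled week 6 alone, 593 fell and 0 rose, and of 1895 that passed it through the week 15 arrays alone, 283 rose and 0 fell, so each called one was higher in the week that let it in. In all, 1744 of the called genes were well above background on all 10 arrays, 743 of them higher and 1001 lower.

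The pairs moved alike to differing degrees. 6035 genes (28%) had the same sign in all 5 pairs, among them 2939 of the called genes. Across the genes tested, Pearson's r between the differences of 2 diets ran from 0.43 for HF5 and HF20 to 0.68 for LFC and HF5, and Spearman's rho from 0.24 to 0.65; genes are not independent replicates. Each other diet had its lowest r with HF20.

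The number of calls depended on the arrays. Without the LFC pair 1723 genes were called, without HF5 1645 and without HF75 1991, and the methods' t-test on the same differences called 393. Of 127 named-gene results, 20 passed the methods' t-test after adjustment. The calls did not hold with other arrays in the place of those labelled week 6. When the week 3 arrays of HFC, HF5, HF20 and HF75 took that place, an alternative added after the data were seen, limma called 0 genes with 4 pairs, 3578 genes were at an unadjusted p under 0.05, and the smallest adjusted p was 0.213. The HF5 array of week 3 stood apart, with 57.3% of probes well above background and an endothelial mean of -1.01 against 2.64 in HFC, 3.63 in HF20 and 3.10 in HF75. Without the HF5 pair limma also called 0 genes with 3 pairs, 2416 genes were at an unadjusted p under 0.05, and the smallest adjusted p was 0.429. Every result below therefore rests on the arrays labelled week 6, and values against week 3 are given beside the leading ones. In bulk RNA, fewer cells of a type and less RNA per cell cannot be told apart.

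The 15 largest falls were led by proteins secreted by the epididymis. Spink8 stood at 6.74 in LFC, 3.92 in HFC, 6.42 in HF5, 5.19 in HF20 and 1.78 in HF75 on the arrays labelled week 6, and at week 15 it was well above background in HF5 alone, at -5.34. It was at least 3917-fold lower at week 15, with a difference of -11.94 (SE 0.66, adjusted p = 0.000426). The same sign in 5 of 5 pairs was a condition for being listed. Of the 15, all but Wfdc10 and Cdh16 passed the filter through the arrays labelled week 6 alone. Among all genes let in that way 593 fell and 0 rose, so the falls of these listed genes are descriptions. Defb28, a beta-defensin, was well above background on no week 15 array and was at least 3885-fold lower. Serpina16, a member of the serpin family, was likewise measured on no week 15 array and was at least 3623-fold lower.

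Whey acidic protein domain genes recurred among these falls. Wfdc13 was at least 1603-fold lower and Wfdc10 at least 1093-fold lower, the first measured on 0 and the second on 4 of 5 week 15 arrays. Wfdc16 was at least 875-fold lower and Wfdc15b at least 660-fold lower. Spint3, a Kunitz-type inhibitor, was at least 643-fold lower. These genes encode small protease inhibitors.

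The other genes of the 15 were of mixed kinds. Crisp1 was at least 918-fold lower, Cuzd1 at least 1375-fold and Adam7, a membrane protein of epididymal epithelium, at least 617-fold. Serpina1f was at least 856-fold lower and C4bp, a regulator of complement, at least 678-fold. Cdh16, a cadherin of tubular epithelia, was at least 496-fold lower and ccdc198 at least 481-fold, and both kept a level near 0 on the HF5 array of week 15, at 0.38 and 0.062.

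Spink8, Defb28, Wfdc10, Crisp1 and Wfdc15b were saturated on 2 of the arrays labelled week 6, and the order among the 15 depends on such bounds. All 15 kept their call when any single pair was left out, and 11 of them passed the methods' t-test. Their direction was fixed there, since the same sign in every pair was a condition for being listed. The 15 were also chosen for their size and their call on these same values. Against the week 3 arrays none of the 15 passed: Spink8 differed by -4.14 (adjusted p = 0.320), Defb28 by -4.41 (adjusted p = 0.267) and Cdh16 by -0.27 (adjusted p = 0.950). With HF5 left out Spink8 differed by -5.69, Defb28 by -5.32 and Cdh16 by -2.43, and none passed.

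Several of these genes are neighbours. The stretch of mouse genes from Wfdc15b to Wfdc13 holds protease inhibitor and seminal vesicle genes side by side. Of its 26 genes 25 were on the array and 22 were tested, of which 14 fell and 1 rose, with a median difference of -5.34. The filter let 10 of the 14 in through the arrays labelled week 6 alone, and over the 12 genes that passed it in both weeks the median was -0.24. The gene that rose was Rbpjl, at 4.09, and Slpi and Sdc4 in the same stretch differed by 0.062 and -0.23 without passing, signs that changed under several alternatives. Over families taken by name after the values were seen, 28 of 33 beta-defensin (Defb) genes tested fell, with a median of -5.09, but 25 of the 33 passed the filter through the arrays labelled week 6 alone; of the other 8, 5 fell, with a median of -3.79. Among lipocalin (Lcn) genes 6 of 8 fell, 4 of them let in through those arrays alone. Other families did not move as a whole: 2 of 14 Serpina genes fell, with a median of 0.93, and 4 of 20 Adam genes, with a median of -0.074. Of 5 Cst genes 1 rose and 2 fell, with a median of -0.084, where 8.66% of all genes fell. The filter let in 2 of the falls in each of these 3 families through the arrays labelled week 6 alone. Of those that passed it in both weeks, 0 of 11 Serpina, 2 of 16 Adam and 0 of 3 Cst genes fell.

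Genes of ciliated and absorptive cells fell with the secreted proteins. Of 11 genes of ciliated and absorptive duct cells tested, 10 fell, with a median of -7.05, and over the 8 that passed the filter in both weeks 7 fell, with a median of -6.49. Over all genes tested 8.66% fell, as did 1273 of the 18889 that passed the filter in both weeks. Lrp2, an endocytic receptor of absorptive epithelia, stood at 2.86 in LFC, 1.58 in HFC, 2.99 in HF5, 3.50 in HF20 and 3.17 in HF75 on the arrays labelled week 6, and at week 15 it was well above background in HF5 alone, at -0.65. Lrp2 was at least 454-fold lower, and against week 3 it differed by -0.30 (adjusted p = 0.932), or by -2.13 without the HF5 pair. The list median against week 3 was -0.057, or -1.78 without that pair. Tekt1, a protein of cilia, was at least 132-fold lower (adjusted p = 0.00287).

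Of 26 tested genes of epididymal epithelium 22 fell, with a median of -7.45, but 17 of these passed the filter through the arrays labelled week 6 alone. Of the 8 that passed it in both weeks 5 fell, with a median of -7.83. For this and the next lists, 8.66% of all genes tested fell, and 1273 of the 18889 that passed the filter in both weeks. Of 12 mesothelial genes 10 fell, with a median of -4.08, and of the 8 that passed the filter in both weeks 6 fell, with a median of -3.77. Of 6 visceral depot genes 4 fell, with a median of -1.35, while Thbd, at 1.16, and Nr2f1, at 0.18, were not called. Of 8 sperm genes, with a median of -2.88 over all 8, 4 fell and the other 4 were not called. The filter let in 2 of those that fell through the arrays labelled week 6 alone. Among those that fell was Prm2, a protamine that packs sperm DNA, at -6.48. Of 7 seminal vesicle genes 4 were tested, and these were well above background on 3 to 5 arrays labelled week 6 and on 0 or 1 at week 15, so that they entered the test through the arrays labelled week 6. They had a median of -3.85, and 3 of them had their highest level on the HFC array labelled week 6, where Svs5 stood at 3.86, while the other was highest in HF5. Against week 3, the medians were -1.12 for epididymal epithelium and 0.99 for mesothelium, and without the HF5 pair they were -2.50 and -0.026.

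**Figure D2:**
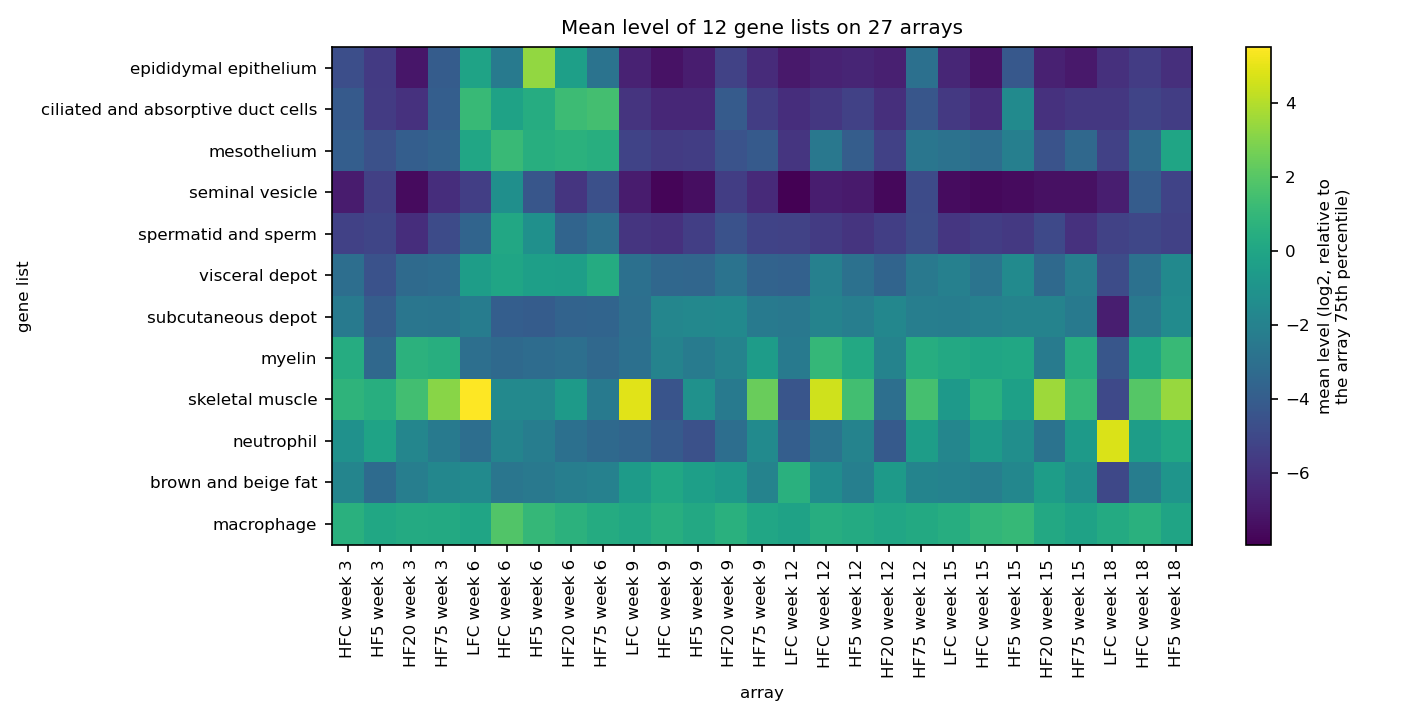
Mean level (log2, relative to the array's 75th percentile) of 12 gene lists on 27 arrays ordered by week and diet. The arrays labelled week 6 are the brightest group for epididymal epithelium, duct cells and mesothelium, and the LFC array labelled week 6 is the brightest for skeletal muscle, at 5.52.

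Epithelial genes from a list set up for other cell types moved the same way. Of 14 keratin and epithelial genes tested 8 fell and 0 rose, with a median of -2.84. Over the 28 keratin (Krt) genes taken by name 3 rose and 5 fell, with a median of 0.53, beside 5.45% higher and 8.66% lower over all genes. The filter let in 9 of the 28 through the week 15 arrays alone, 2 of them rises. Over the 16 that passed it in both weeks 1 rose and 4 fell, with a median of -0.59. Krt8, a keratin of simple epithelia and mesothelium, stood at 6.68 in LFC, 5.56 in HFC, 5.64 in HF5, 5.16 in HF20 and 5.68 in HF75 on the arrays labelled week 6. At week 15 Krt8 stood at 2.05, -1.74, 3.55, -2.39 and 0.53 in the same order, with a difference of -5.35 (SE 0.76, adjusted p = 0.00521). Krt8 was saturated on 2 of the arrays labelled week 6, so this fall is a lower bound. The weeks did not overlap, and LFC and HF5 were the highest of the later week.

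Elf3, an epithelial transcription factor, was at least 47.9-fold lower. Krt19 differed by -3.96 and Cldn3, a tight junction protein, by -3.55. Against week 3 the signs turned without passing: Krt8 differed by 0.99 (adjusted p = 0.722), Elf3 by 0.64 (adjusted p = 0.596), Krt19 by 1.05 (adjusted p = 0.619) and Cldn3 by 1.16 (adjusted p = 0.330). Without the HF5 pair Krt8 differed by -0.47, Krt19 by -0.080 and Cldn3 by 0.62, so the signs of Krt8 and Krt19 depend on that array.

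The 15 largest rises fell into groups by the arrays on which they were high. Among them, Tbx15, Fa2h, Olfr135, Ugt8a, Sox2ot, Lctl and Lhx8 passed the filter through the week 15 arrays alone. Of all genes let in that way 283 rose and 0 fell, so the rises of these listed genes are descriptions. Vat1l led them: it stood at -3.63 in LFC, -2.92 in HFC, -4.06 in HF5, -2.40 in HF20 and -3.22 in HF75 on the arrays labelled week 6. At week 15 Vat1l stood at 2.53, 2.26, 2.06, 1.097 and 2.68 in the same order, a 41.4-fold rise (difference 5.37, SE 0.43, adjusted p = 0.00104). Here too the same sign in 5 of 5 pairs was a condition for being listed. Of the largest rises reported here it alone passed the methods' t-test. Against week 3 Vat1l differed by 0.54 (adjusted p = 0.831), and without the HF5 pair by -0.93 (adjusted p = 0.480).

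Genes of myelin, the sheath that Schwann cells wrap around nerve fibres, were among the largest rises. Mbp, a structural protein of myelin, stood at -1.18 in LFC, -1.52 in HFC, -1.51 in HF5, -0.17 in HF20 and -1.99 in HF75 on the arrays labelled week 6. At week 15 Mbp stood at 4.89, 4.67, 4.44, 0.68 and 5.30, a 38.6-fold rise (SE of the difference 0.86, adjusted p = 0.00853). The weeks did not overlap, and HF20 stood far below the other diets at week 15. The difference in Mbp was 5.27, and 6.37 without the HF20 pair.

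Fa2h and Ugt8a, enzymes that make myelin lipids, were at least 29.2-fold and at least 28.0-fold higher. Sox2ot, a noncoding transcript, was at least 26.7-fold higher. In each of these, HF20 was the lowest diet at week 15.

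Of 11 nerve and Schwann cell genes tested 8 rose and 0 fell, with a median of 2.60, beside 5.45% higher and 8.66% lower over all genes. S100b rose by 2.63 (adjusted p = 0.00548). Of 13 myelin genes grouped after the values were seen 11 rose, with a median of 3.63, and of the 8 that passed the filter in both weeks 6 rose, with a median of 2.22. The mean level of the myelin genes was between -3.38 and -2.99 on the arrays labelled week 6, between -0.036 and 0.47 at week 15 in LFC, HFC, HF5 and HF75, and -2.31 in HF20. Against week 3 the median was 0.16, with Fa2h at -0.095 (adjusted p = 0.978). Without the HF5 pair the myelin median was -1.51 and Fa2h differed by -1.84 (adjusted p = 0.466).

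A different pattern held for Slc36a2, an amino acid transporter known from brown fat. It stood at -3.91 in LFC, -4.88 in HFC, -3.61 in HF5, -3.87 in HF20 and -2.98 in HF75 on the arrays labelled week 6, and at 0.75, 0.23, 0.18, 4.50 and 1.37 at week 15. Its difference was 5.26, and 4.37 to 5.62 under planned choices. Slc36a2 was 38.2-fold higher (SE of the difference 0.63, adjusted p = 0.00285), and HF20 stood far above the other diets. On that array the mean of the adipocyte list was 4.89, against -0.59 to 1.70 on the other week 15 arrays, and its median Spearman's rho with the arrays of its week was 0.926, against 0.960 to 0.965. Lctl was at least 25.2-fold higher and Lhx8, a homeobox factor also known from brown fat, at least 24.8-fold higher, both with their highest week 15 level in HF20, at 1.22 and -0.31.

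Of 11 brown and beige fat genes tested 1 rose and 0 fell, with a median of 0.78, where 5.45% of all genes rose. Against week 3 Slc36a2 differed by 1.58 (adjusted p = 0.319), Lctl by 1.36 (adjusted p = 0.399) and Lhx8 by 2.02 (adjusted p = 0.226). Slc36a2 differed by 1.20, Lctl by 0.78 and Lhx8 by 1.51 once the HF5 pair was dropped. With normexp background correction Lctl no longer passed.

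Olfr135, an olfactory receptor, Ifna2, an interferon, Cts7, a cathepsin, and Timm8a2, a mitochondrial import protein, had their highest week 15 level in LFC, at 0.49, 2.27, 1.98 and 1.61. On the arrays labelled week 6 each was highest in HF75, at -3.54, -0.69, -0.93 and -2.37. Cts7 lost its call without the HFC pair (adjusted p = 0.0602) and without the HF5 pair (adjusted p = 0.0559). Against week 3 these 4 genes had the opposite sign, from -0.89 for Cts7 to -0.049 for Olfr135, and none passed. They ran from -1.48 for Cts7 to -0.62 for Olfr135 and Timm8a2 without the HF5 pair.

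Tbx15 was at least 38.7-fold higher (difference 5.28, SE 0.92, adjusted p = 0.0114), and the filter let it in through the week 15 arrays alone. Mlip, a protein of muscle nuclei, differed by 5.22 (SE 0.79, adjusted p = 0.00662). The LFC array labelled week 6 stood apart for Mlip, at 0.14 against -5.29 to -4.52 in the other diets. Of 5 subcutaneous depot genes tested 3 rose, with a median of 1.58, where 5.45% of all genes rose. The filter let in 2 of the 3 through the week 15 arrays alone. The other that rose was Hoxc10 (adjusted p = 0.0499), which kept its call under 3 of 16 planned choices. Sfrp2 ran the other way, at -1.11, without passing. Against week 3 Tbx15 differed by 1.89 (adjusted p = 0.228), or by 1.27 without the HF5 pair.

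**Figure D3:**
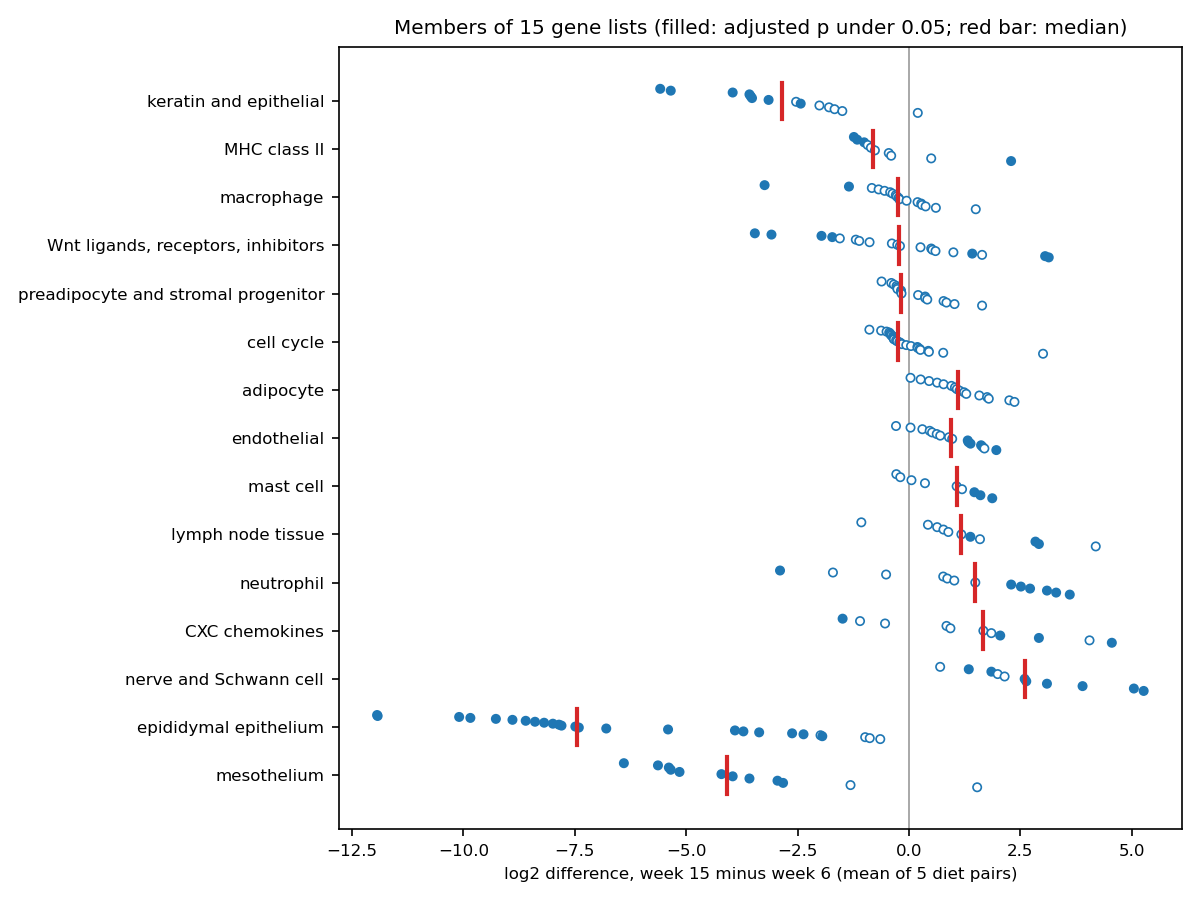
Log2 difference (week 15 minus week 6, mean of 5 diet pairs) of each tested member of 15 gene lists, with 1 point per gene, filled where it passed an adjusted p of 0.05, and the list median as a red bar. The medians run from -7.45 for epididymal epithelium to 2.60 for nerve and Schwann cell genes, against 0.07 over all genes.

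Among immune cells, some neutrophil genes rose. Of 13 tested 6 rose and 1 fell, beside 5.45% higher and 8.66% lower over all genes, and the others were not called. The median over all 13 was 1.49. The filter let in 2 of the 6 through the week 15 arrays alone. Over the 10 that passed it in both weeks 4 rose and 1 fell, with a median of 1.25. S100a8, a calcium-binding protein abundant in neutrophils, stood at -2.86 in LFC, 0.17 in HFC, 0.078 in HF5, -1.92 in HF20 and -1.09 in HF75 on the arrays labelled week 6. At week 15 S100a8 stood at 1.83, 2.83, 3.11, 0.25 and 4.40, with a difference of 3.61 (adjusted p = 0.00515). It was higher at week 15 in 5 of 5 pairs and no level of one week reached into the other.

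Retnlg rose by 3.30, S100a9, saturated on 3 week 15 arrays, by 2.51 and Camp, an antimicrobial peptide, by 2.30. Against week 3 S100a8 differed by 0.44 (adjusted p = 0.834), S100a9 by 0.038 (adjusted p = 0.981) and Camp by -1.39 (adjusted p = 0.576). The list median against week 3 was 0.074. On the 3 pairs left without HF5, S100a8 differed by 1.17, S100a9 by 0.35 and Camp by -0.49, and the list median was 0.39.

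Of 11 CXC chemokine genes 3 rose and 1 fell, with a median of 1.67, beside 5.45% higher and 8.66% lower over all genes. Over the 9 that passed the filter in both weeks 2 rose and 1 fell, with a median of 0.93. The HF20 pair ran the other way, from a mean level of -1.41 to -2.39, while the other week 15 arrays stood at 1.11 to 2.35. Cxcl13, which draws B cells into lymphoid tissue, rose by 2.92 (adjusted p = 0.00645) and Cxcl14 by 2.05 (adjusted p = 0.00879). Of 11 lymph node genes 3 rose and 0 fell, with a median of 1.18, where 5.45% of all genes rose. The filter let in 4 of the 11 through the week 15 arrays alone, 1 of them a rise. Over the 7 that passed it in both weeks 2 rose and 0 fell, with a median of 0.88. Against week 3 the lymph node median was -3.33, or -3.10 without the HF5 pair; the week 3 arrays carried lymph node genes at higher levels. Of 9 mast cell genes 3 rose and 0 fell, where 5.45% of all genes rose, with Mcpt4, a mast cell protease, at 1.87.

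Of 18 macrophage identity genes tested 0 rose and 2 fell, with a median of -0.25, beside 5.45% higher and 8.66% lower over all genes. Cx3cr1, a chemokine receptor, stood at -2.23 in LFC, -1.005 in HFC, -1.23 in HF5, -2.12 in HF20 and -2.52 in HF75 on the arrays labelled week 6. At week 15 it stood at -5.01, -3.97, -4.68 and -5.22 in the first 4 of these diets and was not well above background in HF75. It was at least 9.44-fold lower and the weeks did not overlap. Of 11 genes of alternatively activated macrophages tested 1 rose and 0 fell, with a median of 0.77, where 5.45% of all genes rose. That gene was Chil3, a secreted lectin, which rose by 3.71 (adjusted p = 0.00792), with HF20 the lowest diet at week 15, at -0.56. Against week 3 Chil3 differed by 0.88 (adjusted p = 0.562), or by 1.05 without the HF5 pair.

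Some endothelial genes rose. Of 16 tested 6 rose and 0 fell, with a median of 0.94, beside 5.45% higher and 8.66% lower over all genes. Kdr, a receptor for vascular growth factor, stood at 1.71 in LFC, 1.70 in HFC, 2.14 in HF5, 1.28 in HF20 and 2.36 in HF75 on the arrays labelled week 6, and at 4.17, 2.96, 3.56, 3.10 and 3.52 at week 15. Its difference was 1.62 (adjusted p = 0.00997) and the weeks did not overlap. Flt1, another such receptor, rose by 1.96 (adjusted p = 0.0103). Against week 3 Kdr differed by 1.40 (adjusted p = 0.508) and Flt1 by 1.52 (adjusted p = 0.440), and neither passed. Without the HF5 pair Kdr differed by 0.043 and Flt1 by 0.32, and the list median was 0.046.

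Mmp3, a protease that cuts extracellular matrix, was the most regular rise among the lists. It stood at -1.06 in LFC, 0.27 in HFC, 0.41 in HF5, -0.62 in HF20 and -0.37 in HF75 on the arrays labelled week 6, and at 3.99, 4.51, 4.37, 2.88 and 4.14 at week 15. It was 19.1-fold higher (difference 4.25, SE 0.29, adjusted p = 0.000744), the weeks did not overlap, and the call held with any single pair left out and in the methods' t-test. Against week 3 Mmp3 differed by 2.02 (adjusted p = 0.232), or by 1.45 without the HF5 pair. Of 18 genes for matrix proteases and their inhibitors 2 rose and 1 fell, beside 5.45% higher and 8.66% lower over all genes.

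Wnt genes, which code for secreted signals and their inhibitors, changed in both directions. Of 20 tested 3 rose and 4 fell, with a median of -0.23, beside 5.45% and 8.66% of all genes. Wnt4, a ligand, fell by 3.46 (adjusted p = 0.00145), and Sfrp1, a secreted inhibitor, by 3.08 (adjusted p = 0.00222). Sfrp5, another secreted inhibitor, was at least 8.32-fold higher (adjusted p = 0.00254). Against week 3 Wnt4 differed by 0.43 (adjusted p = 0.570), Sfrp1 by 1.30 (adjusted p = 0.414) and Sfrp5 by 1.21 (adjusted p = 0.367), so Wnt4 and Sfrp1 had the opposite sign there. Wnt4 differed by 0.19, Sfrp1 by 0.33 and Sfrp5 by 0.48 without the HF5 pair.

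Among insulin-like growth factor genes 0 of 13 rose and 2 fell, where 8.66% of all genes fell. Igfbp1, a binding protein, was at least 88.3-fold lower (adjusted p = 0.00521), and HF5 was its highest diet at week 15, at -1.60. Of 13 adipokine genes tested 2 rose and 1 fell, with a median of 1.14, beside 5.45% higher and 8.66% lower over all genes. The adipokine gene that fell was Agt, the precursor of angiotensin, by 3.03 (adjusted p = 0.00883). Against week 3 Igfbp1 differed by 0.99 (adjusted p = 0.571) and Agt by 1.84 (adjusted p = 0.288), again of opposite sign. Agt differed by 1.12 without the HF5 pair, where Igfbp1 was not tested.

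Adipocyte genes did not pass the test. Of 16 tested limma called 0, where 14.1% of all genes were called, although the median of the 16 was 1.11. Adipoq, the adipocyte hormone adiponectin, stood at 1.18 in LFC, 0.60 in HFC, 1.85 in HF5, 0.31 in HF20 and 1.60 in HF75 on the arrays labelled week 6, and at 2.61, 1.48, 0.12, 5.87 and 4.24 at week 15. HF5 was lower at week 15 and the other 4 diets were higher. It was saturated on 1 week 15 array. The difference was 1.76 (SE 0.90, adjusted p = 0.244), and 0.80 without the HF20 pair.

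Where 14.1% of all genes tested were called, several lists had 0 called genes. Among these were stromal progenitor genes (17 tested, median -0.17), cell cycle genes (26, median -0.24), circadian clock genes (18, median -0.048), lysosome genes (20, median -0.072), cytosolic ribosomal proteins (29, median -0.13) and respiratory chain genes (31, median 0.14). AP-1 genes (10 tested) and fatty acid oxidation genes (19 tested) also had 0 called in limma. Stromal progenitors are the cells the label leads one to look for, and all 17 of their genes were well above background on each of the 10 arrays.

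Skeletal muscle genes differed between the arrays of a week. The list's mean level was 5.52 on the LFC array labelled week 6 and between -2.46 and -0.62 on the other 4 arrays of that week. At week 15 it was highest in HF20, at 3.56. Of 14 muscle genes 1 rose and 0 fell, where 5.45% of all genes rose.

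The change between the weeks was compared between diets. For diets with Kal-1 (HF5, HF20 and HF75) against those without (LFC and HFC), limma called 0 genes, 588 (2.73%) were at an unadjusted p under 0.05, and the methods' t-test after adjustment also called 0. The smallest adjusted p was 1.00. For the 4 high-fat diets against LFC, limma called 0 genes, 914 (4.24%) were at an unadjusted p under 0.05, and the methods' t-test called 0. The LFC side is 1 pair, which is assumed to vary like the others.

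The smallest adjusted p in the second comparison was 0.0553, for Pvalb, a calcium buffer of fast muscle, and Dcpp2, a salivary protein. Pvalb differed by -8.59 in the LFC pair and by 3.57 or more in each other pair, and it stood at 5.10 on the LFC array labelled week 6. Dcpp2 stood at 6.17 on the LFC array of week 15, where it was saturated, and was not well above background on the LFC array labelled week 6. Without the HF20 pair limma called 34 genes in this comparison.

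A later and an earlier week that share no array with the main comparison were looked up last. For week 12 against week 3, with 4 pairs, limma called 0 of 21161 genes, 2664 (12.6%) were at an unadjusted p under 0.05, and the methods' t-test called 0. Of 1162 genes called higher and tested in both, 646 (55.6%) were also higher at week 12 than at week 3, and of 1301 called lower, 512 (39.4%) were also lower. Over all genes tested in both, 48.6% had the same direction. The median week 12 minus week 3 difference was 0.14 for the genes called higher and 0.20 for those called lower.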

How the data were processed

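Total RNA was measured on 1-colour Agilent arrays. The authors deposited 1 scanner file per array, whose values are signal intensity, per the file headers background-subtracted and detrended within the array by Feature Extraction 10.5.1.1, while the submitters' notes give version 9.1; the spot flags, also deposited by the authors, are other values of 0 or 1. The authors' fold-change table was not used, nor were 2 week 18 arrays that the labels put in no group. Members and lists were chosen with earlier results of these data known.

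Processed signals were set on the log2 scale and shifted by each array's 75th percentile, duplicate spots were averaged, outlier spots dropped (60 probes left out), and values not well above background raised, where below it, to the array's lowest level well above background. Fold bounds ("at least") use the values so treated. Tested were probes that passed this mark on 50% or more of the week 6 or of the week 15 arrays (30356 probes, 21537 genes). limma 3.58.1 in R 4.3.3 fitted week with diet as a block, with Benjamini-Hochberg adjustment over all probes. A gene is its tested probe with the highest mean level, and 76 of 798 called genes with other probes had a probe of opposite sign, 6 of them past the threshold. Of all probes 69.3% were named by accession, 12.3% by symbol and 3.5% by synonym, and 15.0% kept the file's name.

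Some genes are not reported here. Named are otherwise the 15 largest rises and falls among called genes with the same sign in 5 of 5 pairs, leaving out accession-like names, up to 4 members per list by smallest p, and 5 genes per direction for diet differences had any passed; Lrp2, Rbpjl, Slpi, Sdc4, Adipoq, Pvalb, Dcpp2 and the genes of the tissue check were chosen after their values were seen. As a check of the pairing, the correlation across genes of a diet's deviations from the week means at both weeks was -0.062 in LFC, 0.39 in HFC, 0.042 in HF5, 0.18 in HF20 and 0.43 in HF75. This pipeline was tested on simulated data. Tables and figures were made in Python 3.11.15 with pandas 2.3.3 and matplotlib 3.10.9. The number of arrays limits the precision. Alternatives covered background correction, normalization, filters, the floor, the test, the variance model, pairing, gene summaries, each pair left out and, added after the data were seen, the week 3 arrays with and without HF5.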

Additional observations from a re-analysis of the deposited data

Results flagged for a closer look

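In 15 of 65 groups of 5 values looked at, 1 value lay far from the other 4; chance gives about 1 in 20 such groups, a rate that does not hold for groups chosen after their values were seen, as several of these were. On the HF20 array of week 15, 6 values stood apart: Mbp at 0.68, Fa2h at -4.09, Ugt8a at -4.61 and the myelin mean at -2.31, all below the other diets, and Slc36a2 at 4.50 and Lctl at 1.22, both above them. On the HF5 array of week 15 the mean of epididymal epithelium genes was -4.23 and that of ciliated and absorptive duct genes was -1.48, both above the other diets.

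On the LFC array labelled week 6, Mlip stood at 0.14, the subcutaneous depot mean at -2.28 and the skeletal muscle mean at 5.52, each above the other diets of that week. The HF20 array labelled week 6 had the highest 75th percentile, 1793.3, and the highest signal over background, 10.8. Within the LFC pair, Pvalb differed by -8.59 and Dcpp2 by at least 11.97, from a value not well above background to a saturated one, apart from the other 4 pairs, some of whose differences are also bounds.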

How the results depend on the processing

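The 1173 higher and 1866 lower genes became 1152 and 1794 with normexp, 1242 and 1809 with quantile normalization, 1290 and 1792 without raising dim values, 1149 and 1879 with median centring, 1350 and 1936 with an intensity trend, 949 and 1819 without pairing. Without the filter on dim probes 7888 genes were called, 1842 higher and 6046 lower, and the median difference over all genes was -0.15. This run takes in probes that were dim in both weeks. Dim values are raised to the array's lowest level well above background, which differed between the weeks by -0.76 on average. A probe raised on every array therefore differs by that much through the raising alone. How many of the 6046 this covers was not tested. With probes well above background on every array, 1860 were called (808 higher, 1052 lower), with fewer genes tested (17008). The methods' t-test called 393 (113 higher, 280 lower; 5691 at an unadjusted p under 0.05). Leaving out each pair gave 1645 to 3083 genes, 413 to 1253 higher and 1232 to 1830 lower, with fewer arrays; the higher genes were 458 without LFC, 609 without HFC, 413 without HF5 and 692 without HF75. High-fat against low-fat gave 1 gene with normexp, 8 without the filter, 2 with the intensity trend and 0 to 34 with a pair left out; the cause was not tested, and it could not be fitted without the LFC pair. The Kal-1 comparison and week 12 against week 3 gave 0 genes in limma under each alternative run. A slide block was not run, since only 2 of the 10 arrays share a slide and no correlation could be estimated. Falls of genes not well above background at week 15 are lower bounds.

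With the week 3 arrays in place of those labelled week 6, an alternative chosen after seeing the data, 0 genes were called, 0 higher and 0 lower, and 3578 were at an unadjusted p under 0.05. Of 124 named-gene results it could give, 49 had the opposite sign, 73 kept their sign without passing and 2 kept sign and side of the threshold; the cause was not tested. Log2 differences of opposite sign were, for genes above 0 against week 6, Fa2h -0.095, Olfr135 -0.049, Ifna2 -0.56, Ugt8a -0.76, Cts7 -0.89, Timm8a2 -0.082, H2-Ob -2.86, Ddx58 -0.71, Ms4a1 -4.96, Cd3e -0.85, Madcam1 -0.48, Camp -1.39, Ttn -0.43, S100b -0.016, Prx -0.16, Foxo1 -0.54, Fgf2 -1.21, Pvalb -0.55, Drp2 -0.38, Cldn19 -0.43 and Slpi -1.51. For genes below 0 against week 6 they were Csf1r 0.39, Trem2 0.75, Des 0.70, Cnn1 1.28, Cldn3 1.16, Elf3 0.64, Krt19 1.05, Krt8 0.99, Agt 1.84, Nsdhl 0.69, Igfbp1 0.99, Igfbp2 0.40, Gpx3 2.29, Lcn2 1.86, Ltbp2 0.23, Fbln1 1.34, Mmp23 0.57, Wnt4 0.43, Sfrp1 1.30, Wnt5b 0.52, Slc29a1 0.46, Tcf21 0.37, Upk3b 0.0028, Muc16 0.86, Msln 1.505, Wt1 0.44, Tekt1 1.09 and Sdc4 0.73.

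With those arrays and no HF5 pair, also chosen after seeing the data since the HF5 array of week 3 stood apart, 0 genes were called, 0 higher and 0 lower, and 2416 were at an unadjusted p under 0.05. Of 118 named-gene results 41 had the opposite sign, 75 kept their sign without passing and 2 were the same. Those of opposite sign were Vat1l -0.93, Mbp -1.56, Mlip -0.86, Fa2h -1.84, Olfr135 -0.62, Ifna2 -1.40, Ugt8a -2.09, Sox2ot -0.70, Cts7 -1.48, Timm8a2 -0.62, Csf1r 0.12, Trem2 0.76, Cxcl13 -0.019, H2-Ob -2.87, Ddx58 -1.08, Ms4a1 -4.93, Cd3e -0.24, Madcam1 -0.62, Camp -0.49, Des 0.037, Ttn -0.87, Cldn3 0.62, S100b -0.99, Prx -1.99, Agt 1.12, Nsdhl 0.48, Foxo1 -0.32, Gpx3 1.78, Lcn2 2.08, Fbln1 0.71, Wnt4 0.19, Sfrp1 0.33, Wnt5b 0.66, Fgf2 -1.89, Slc29a1 0.23, Pvalb -0.020, Msln 0.45, Drp2 -1.84, Cldn19 -1.51, Rbpjl -0.56 and Slpi -1.51.

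Under planned choices 7 signs changed, all of genes that did not pass. Dcpp2 was -0.17 without the LFC pair and 2.26 with it, as that pair alone stood at 11.97 or more, and with a pair left out it ran up to 3.17. Slpi was -0.11 with quantile normalization, -0.078 without the LFC pair and -0.18 without the HFC pair, and ran to 0.40 with a pair left out. Sdc4 was 0.024 without the HFC pair, 0.14 without the HF20 pair and 0.16 with the mean of a gene's probes, and ran from -0.84 with a pair left out. The methods' t-test kept 25 of 127 named-gene results on their side of the threshold, and 102 no longer passed. Of the same 127, 37 no longer passed without the LFC pair, 31 without HFC, 37 without HF5, 18 without HF20 and 36 without HF75. Without pairing 24 no longer passed, and with normexp 15.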
